A study of Mus musculus with 3 samples.

Results

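The genes described here are 6 basic helix-loop-helix (bHLH) transcription factors of the Hand and Twist families and their close relatives: Hand1, Hand2, Twist1, Twist2, Scx and Tcf15. Their GLI3 peaks were collected by position, taking every listed peak whose summit lay within 200 kb of an annotated transcription start site (TSS) of a member in the mouse mm10 assembly. This gave 60 of the 17149 listed peaks. Of these, 22 had a false discovery rate (FDR) under 0.05 and were taken as called GLI3 binding regions (GBRs), out of 7282 in all. No peak lay within 200 kb of more than 1 member. Neither enrichment nor motif content was used to choose the 60 peaks, whereas the 22 were set apart from the rest by their FDR.

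The peaks come from chromatin immunoprecipitation and sequencing (ChIP-seq) of GLI3 in mouse forelimb buds at E10.5 (32 to 35 somites), from 2 ChIP libraries and 1 input library. The peak list was deposited with ChIP replicate 1. It was used as a joint call of both replicates, as the methods describe the called peaks, but the list itself does not name the libraries behind its values. Endogenous GLI3 carried a FLAG tag, the strain background was mixed, and the genotype label of the samples reads wild type. Each ChIP reaction pooled whole forelimb buds of 2 litters, so anterior and posterior cells and the covering ectoderm were measured together. The peak list gives no value per library, so no value below has a replicate error and no difference was tested. Sequencing depth is stated in the methods only as a minimum for each library.

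GLI3 is a transcription factor at the end of the Hedgehog pathway. Without Hedgehog signal it is processed to a repressor, and Sonic hedgehog from the posterior limb bud lowers that repressor. HAND and TWIST proteins are tissue-specific (class II) bHLH factors that bind E-boxes, short DNA sites of the form CANNTG, as dimers with widely expressed E proteins or with each other. Id proteins, which lack the DNA-binding basic region, hold E proteins away from such dimers. In the limb bud, Hand2 acts in posterior mesenchyme, where it and Gli3 oppose each other before Sonic hedgehog is made. Twist1 acts in limb mesenchyme and can dimerise with HAND2. Hand1 is a close paralogue of Hand2, Twist2 a close paralogue of Twist1, Scx (scleraxis) marks tendon progenitors, and Tcf15 (paraxis) is best known from the somites.

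The consensus site for GLI proteins is GACCACCCA (reverse complement TGGGTGGTC). It was searched on both strands with at most 1 mismatch in a window of 250 bp to each side of each summit. Among the 22 GBRs, 4 held a match, 2 at Hand1 and 2 at Hand2. The only exact match among the 60 listed peaks lay near Hand1, by a peak that was not called. These 5 sites are shown with 16 bases of flank from the mm10 genome, 5′ to 3′ on the strand of the match, with the 9 matched bases in capitals.
Hand1, rank 1408, chr11:57827812-57827852, plus strand: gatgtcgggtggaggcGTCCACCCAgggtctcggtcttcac
Hand1, rank 5584, chr11:57882912-57882952, minus strand: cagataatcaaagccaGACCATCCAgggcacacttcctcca
Hand2, rank 830, chr8:57334000-57334040, plus strand: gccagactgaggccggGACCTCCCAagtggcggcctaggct
Hand2, rank 1229, chr8:57405441-57405481, minus strand: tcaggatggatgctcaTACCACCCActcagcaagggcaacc
Hand1, rank 15474 (not called), chr11:57787386-57787426, plus strand: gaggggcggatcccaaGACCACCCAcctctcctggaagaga
Counting positions from 1 at the 5′ end of the consensus, with the consensus base written before the position and the genome base after it, the 4 called sites differ from it by A2T, C6T, A5T and G1T, in the order shown. Each of the 4 has a different mismatch.

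E-boxes of the kinds bound by HAND and TWIST dimers were searched as CATCTG, its reverse complement CAGATG, and the palindrome CATATG. Of the 22 GBRs, 9 held at least 1 within 250 bp of the summit, and none of those 9 held a GLI match in the same window. A pair of E-boxes separated by 5 bases (CANNTGNNNNNCANNTG), a spacing known for TWIST1 dimers, lay near the summit in 2 GBRs, at Hand2 and Twist2. They are shown on the plus strand with both E-boxes in capitals.
Hand2, rank 2932, chr8:57293667-57293715: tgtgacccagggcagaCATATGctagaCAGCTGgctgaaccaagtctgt
Twist2, rank 1207, chr1:91844819-91844867: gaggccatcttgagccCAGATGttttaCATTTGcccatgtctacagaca
The summits of the highest-ranked GBRs near Tcf15 and Scx, and of the GBR nearest to Hand2, are shown on the plus strand with 100 bases to each side, because each holds a searched E-box (in capitals) within that distance of its summit.
Tcf15, rank 775, chr2:152114647-152114847: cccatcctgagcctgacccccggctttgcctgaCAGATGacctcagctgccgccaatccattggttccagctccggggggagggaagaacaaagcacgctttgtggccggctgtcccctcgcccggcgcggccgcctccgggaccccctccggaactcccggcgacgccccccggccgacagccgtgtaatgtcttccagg
Scx, rank 883, chr15:76523167-76523367: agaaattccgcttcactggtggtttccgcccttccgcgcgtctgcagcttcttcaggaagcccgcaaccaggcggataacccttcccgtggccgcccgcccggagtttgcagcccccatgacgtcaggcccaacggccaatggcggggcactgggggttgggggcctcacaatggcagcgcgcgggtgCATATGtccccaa
Hand2, rank 1851, chr8:57328512-57328712: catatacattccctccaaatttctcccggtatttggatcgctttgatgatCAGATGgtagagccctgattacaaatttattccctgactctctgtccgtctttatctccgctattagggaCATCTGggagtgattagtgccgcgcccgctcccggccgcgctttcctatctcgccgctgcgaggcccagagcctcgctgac
The GBR of Twist1 spans its TSS, and the 71 bases of it that precede the TSS hold neither a GLI match nor a searched E-box.
Twist1, rank 2645, chr12:33957600-33957670: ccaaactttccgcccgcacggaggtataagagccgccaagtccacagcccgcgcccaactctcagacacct

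All 6 genes had at least 1 GBR within 200 kb, as did 66.1% of protein-coding genes. Enrichment is given below on the log2 scale, as the highest ratio of ChIP to input reached within a peak. Each peak is named by its rank in the list, which counts down from the strongest. Among the listed peaks near the 6 genes, 36.7% were called (95% Wilson interval 25.6 to 49.3), against 42.5% of all listed peaks. The interval covers counting error over peaks only and includes the value for all peaks. Near the 6 genes the weakest GBR had a log2 enrichment of 2.32 and the strongest 3.48. The 38 peaks that were not called lay between 1.72 and 2.31. The FDR follows the log2 enrichment closely, so the absence of overlap between called and uncalled peaks is built into the threshold. The Poisson p-value in the list does overlap: 24 of the 38 uncalled peaks had a higher −log10 Poisson p than the weakest GBR by that measure (6.31, near Scx).

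**Figure D1:**
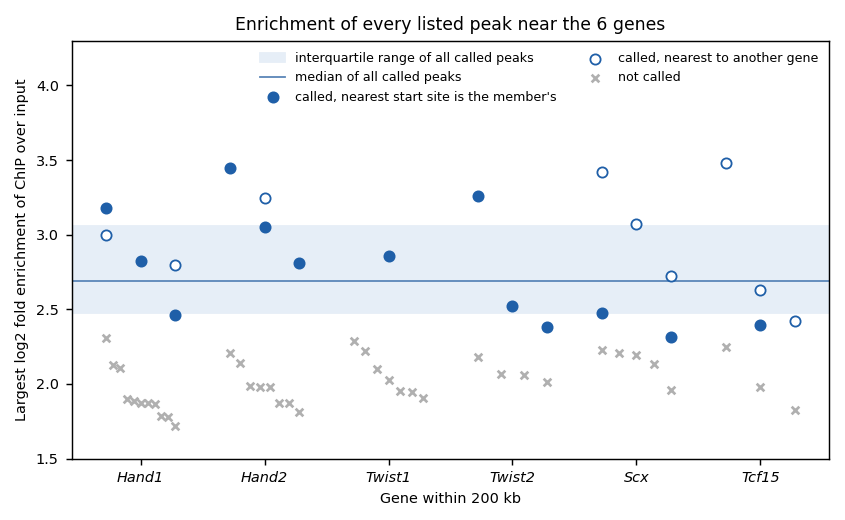
Highest log2 enrichment over input (vertical axis, starting at 1.5) for each of the 60 listed peaks, by gene (horizontal axis). Filled circles are GBRs whose nearest protein-coding TSS is that of the gene, open circles are GBRs nearer to another gene, crosses are peaks that were not called, and the line and band are the median (2.69) and interquartile range (2.47 to 3.06) of all 7282 GBRs; at Hand2 all 4 GBRs lie above the line, and Twist1 has a single GBR at 2.86.

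Hand2 (ENSMUSG00000038193.4, chr8:57320983-57324633, plus strand) had 12 listed peaks and 4 GBRs, and none of the 4 was at a promoter. Their log2 enrichments were 2.81, 3.05, 3.45 and 3.25 in order along the chromosome, each above the median of all GBRs. The strongest, rank 830 (chr8:57333100-57334949), lay 12.9 kb downstream of the TSS. Its summit falls in an exon of the long non-coding RNA gene Gm34030 and an intron of 5033428I22Rik. It was 1850 bp long, and 39 of the 7282 GBRs (0.536%) were at least as long. Its −log10 Poisson p of 62.0 was the highest near the 6 genes. The GLI match of this peak, shown above, lies 88 bp from the summit, and 30.9% of its summit window is repeat sequence.

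The next GBR towards the gene, rank 1851 (chr8:57328050-57328949), lay 7.63 kb downstream of the Hand2 TSS and 5320 bp from the summit of rank 830. It had a log2 enrichment of 3.05 and a length of 900 bp. It held no GLI match but a CAGATG and a CATCTG, at 47 bp and 23 bp on opposite sides of the summit. Upstream, rank 2932 (chr8:57293500-57293849) lay 27.3 kb from the TSS in an intron of Hand2os1, a non-coding transcript of the opposite strand, with a log2 enrichment of 2.81. Its CATATG belongs to the E-box pair shown above. The fourth GBR, rank 1229 (chr8:57405150-57405749), lay 84.6 kb downstream in an intron of the non-coding gene Gm34099, with a log2 enrichment of 3.25 and a GLI match 86 bp from its summit. Its nearest protein-coding TSS, 50.4 kb away, is that of Scrg1, whereas the other 3 lie nearest to Hand2.

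The Hand2 TSS itself carried listed peaks that did not pass the threshold. Rank 13189, 129 bp downstream of the TSS, had a log2 enrichment of 1.98 (FDR 0.469763), and rank 12834, 574 bp downstream, had 1.99 (FDR 0.460751). The −log10 Poisson p of rank 13189 was 12.9, equal to that of the upstream GBR of rank 2932. The 8 uncalled peaks near Hand2 ranged from 1.81 to 2.21 in log2 enrichment, and the highest of them lay at the promoter of Hmgb2, a chromatin protein gene 191 kb downstream.

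**Figure D2:**
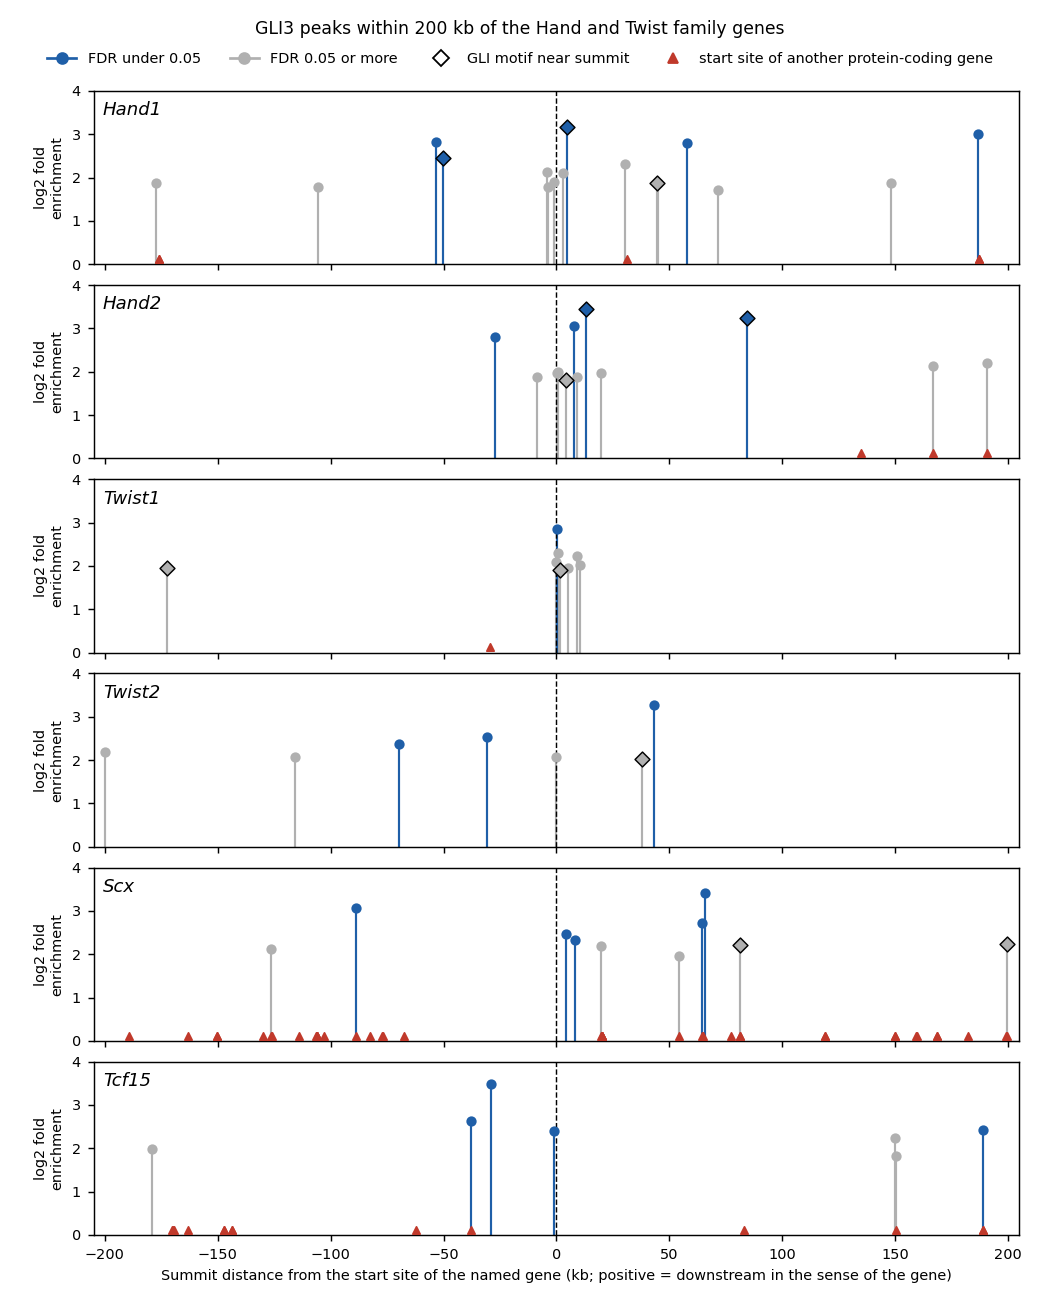
Position and log2 fold enrichment of each listed peak within 200 kb of the 6 genes, 1 panel per gene; the horizontal axis is the summit's distance from the TSS in kb, positive in the direction of transcription, and the vertical axis the largest log2 enrichment. Blue stems are GBRs, grey stems are uncalled peaks, diamonds mark a GLI match within 250 bp of the summit and red triangles are TSSs of other protein-coding genes; the GBRs of Hand2 and Twist2 stand away from any triangle, while 3 of 5 at Scx and 2 of 4 at Tcf15 stand at a triangle.

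Hand1 (ENSMUSG00000037335.13, chr11:57828705-57832818, minus strand) had the most listed peaks of the 6 genes, 16, with 5 GBRs. The strongest, rank 1408 (chr11:57827250-57827899), lay 4495 bp downstream of the nearer annotated TSS, just past the 3′ end of the gene. It had a log2 enrichment of 3.18 and a GLI match 180 bp from its summit. A further 2 GBRs lay upstream, 3330 bp apart and in no annotated protein-coding gene. They were rank 5584 (chr11:57882700-57882999), at 50.1 kb with a log2 enrichment of 2.46 (FDR 0.011402), and rank 2832 (chr11:57886100-57886399), at 53.4 kb with 2.82. The weaker of the 2 held the GLI match, 45 bp from its summit.

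The other 2 GBRs near Hand1 belong by distance to its neighbours. Rank 2979 (chr11:57773550-57774199), in an intron of the glycosyltransferase gene Galnt10, had a log2 enrichment of 2.80 and a CATCTG 48 bp from its summit. It lay 27.5 kb from the TSS of Sap30l, a relative of a corepressor subunit gene, and 58.0 kb downstream of that of Hand1. No GLI match lay in its summit window, but the whole peak held 2, at 355 bp and 337 bp from the summit. Rank 2069, at 3.0, lay 185 bp from the Galnt10 TSS, 187 kb from Hand1, and also held a CATCTG. The 11 uncalled peaks ranged from 1.72 to 2.31, and the highest lay 120 bp from the Sap30l TSS (rank 7294, FDR 0.070419). The peak nearest to a Hand1 TSS, rank 14902 at 894 bp upstream, was not called (log2 enrichment 1.90). The exact GLI consensus lay 126 bp from the summit of rank 15474, which itself had a log2 enrichment of 1.87 and an FDR of 1, and the site falls outside the listed boundaries of that peak.

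Twist1 (ENSMUSG00000035799.6, chr12:33957671-33959829, plus strand) had 8 listed peaks and a single GBR, which lay at its own promoter. The GBR, rank 2645 (chr12:33957600-33958199), had its summit 66 bp downstream of the TSS in the 5′ untranslated region, with a log2 enrichment of 2.86 and a length of 600 bp. It was flanked by uncalled peaks at 239 bp upstream (2.1), 761 bp downstream in the coding exon (2.29, FDR 0.070419) and 1431 bp downstream in the intron (1.91). A further 3 uncalled peaks lay between 5.08 kb and 10.6 kb downstream. The remaining peak, rank 13798, lay 173 kb upstream with a log2 enrichment of 1.95, and its nearest protein-coding TSS is that of Ferd3l, another bHLH gene. No GBR lay outside a promoter within 200 kb of Twist1.

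Twist2 (ENSMUSG00000007805.4, chr1:91801461-91848028, plus strand) had 7 listed peaks and 3 GBRs. All 3 were distal, and no TSS of another protein-coding gene lay within 200 kb. The strongest, rank 1207 (chr1:91844650-91845199), lay 43.4 kb downstream of the TSS in the long intron of the gene. It had a log2 enrichment of 3.26 and held 2 copies of CAGATG, at 44 bp and 93 bp on opposite sides of the summit. Upstream GBRs were weaker: rank 5000 (chr1:91770500-91770899) at 30.8 kb had 2.52 (FDR 0.011402), and rank 6527 (chr1:91731800-91731999) at 69.5 kb had 2.38 (FDR 0.037408). At the TSS, rank 11545 had a summit 29 bp upstream with a log2 enrichment of 2.06 and was not called (FDR 0.438195). The uncalled intronic peak of rank 12584, with a log2 enrichment of 2.01, held the only GLI match near Twist2, GACCACACA (C7A), 22 bp from its summit.

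Scx (ENSMUSG00000034161.8, chr15:76457452-76459458, plus strand) lies in a gene-dense stretch, with 25 other protein-coding genes within 200 kb. It had 10 listed peaks and 5 GBRs. The 2 GBRs nearest to it, rank 5403 (chr15:76461800-76462449) at 4387 bp and rank 7256 (chr15:76465550-76465849) at 8117 bp downstream, fall in introns of Bop1, a ribosome biogenesis gene that overlaps this region on the opposite strand. Their log2 enrichments were 2.47 and 2.32, and neither held a GLI match or a searched E-box. Rank 7256 was the weakest GBR near any of the 6 genes (FDR 0.039297). The stronger GBRs lay at other promoters. Rank 883 (chr15:76523150-76523499), at 3.42, was 768 bp from the TSS of Scrt1, which encodes a neuronal zinc-finger repressor. It was 65.7 kb from Scx. Rank 3429 (2.72) lay 280 bp from the same TSS, and rank 1733 (3.07) lay 16 bp from the TSS of Hgh1. A CATCTG lay 88 bp from the summit of rank 1733, outside the listed boundaries of that peak.

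Tcf15 (ENSMUSG00000068079.5, chr2:152143561-152149097, plus strand) had 7 listed peaks, of which 4 were GBRs. Rank 6285 (chr2:152142150-152142499) lay 1274 bp upstream of the TSS with a log2 enrichment of 2.39 (FDR 0.020899). With Twist1, this made 2 of 6 genes with a GBR in their own promoter window (2 kb before to 1 kb after a TSS), against 17.2% of protein-coding genes. The RefSeq gene model starts further upstream, at position 152143056, so this distance depends on the annotation. With a window of 1 kb to each side of the TSS used here, rank 6285 falls outside it. Twist1 alone then has a GBR in its own promoter. The strongest GBR near any of the 6 genes, rank 775 (chr2:152114450-152114899) at 3.48, lay 28.8 kb upstream. It is nearer to Srxn1, the gene of an antioxidant enzyme, whose TSS is 9.22 kb away. It held no GLI match and a CAGATG 64 bp from the summit. The other 2 lay at the promoters of Srxn1 (rank 4055, 2.63) and Rbck1 (rank 5992, 2.42), 93 bp and 80 bp from those TSSs. None of the 7 listed peaks near Tcf15 held a GLI match.

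Of the 22 GBRs, 13 had a member's TSS as the nearest protein-coding TSS (59.1%, Wilson interval 38.7 to 76.7): 3 each at Hand1, Hand2 and Twist2, 2 at Scx and 1 each at Twist1 and Tcf15. With TSSs of non-coding genes counted as well, the number was 7, since the 2 upstream peaks of Hand1, all 3 of Hand2 and the intronic peak of Twist2 lie closer to a non-coding gene. At an FDR under 0.01 it was 7 of the 15 peaks that passed. Distances were measured along the chromosome, and which gene a region acts on was not measured.

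Set beside all 21827 protein-coding genes, 5 of the 6 had more GBRs than the median gene, as did 47.4% of all genes. Twist1 had as many as the median gene. Hand1 and Scx had 5 each (10.8% of genes had more), Hand2 and Tcf15 4 each (15.5%) and Twist2 3 (23.1%). Within 200 kb the median gene had 1 GBR (interquartile range 0 to 3) and 3 listed peaks, and the 6 genes had medians of 4 and 9. The 6 genes had a median of 3 other coding genes within 200 kb, against 7, although Scx had 25 and Tcf15 had 7. Among distal GBRs alone, Hand1 and Hand2 had 4 each, and 4.22% of genes had at least as many. Twist2 had 3 (7.65%), Scx 2 (15.2%) and Tcf15 1 (34.4%). Twist1, with 0, was like most genes, whose median was also 0. Within 10 kb of a TSS, a distance chosen after the values were seen, Hand2 and Twist1 had 6 listed peaks each (0.747% of genes had at least as many) and Hand1 had 5 (1.22%), with 1 GBR at each of these 3 genes. Scx had 2 (12.8%), both GBRs, and Twist2 and Tcf15 had 1 each (36.8%), of which that of Tcf15 was a GBR. The median gene had 0.

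**Figure D3:**
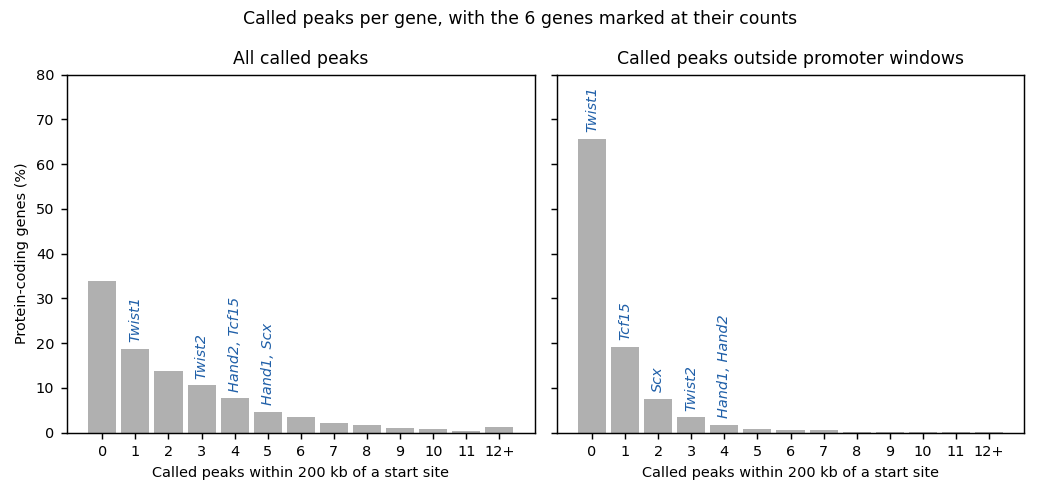
Share of all 21827 protein-coding genes (vertical axis, %) by the number of GBRs within 200 kb of a TSS (horizontal axis), for all GBRs (left) and for those outside promoter windows (right). Each of the 6 genes is written above the bar of its count: Hand1 and Hand2 stand at 4 distal GBRs, Twist1 at 0.

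By place, 8 of the 22 GBRs overlapped a promoter window (36.4%, Wilson interval 19.7 to 57.0), against 52.6% of all GBRs. Of these 8, 6 were at promoters of neighbours (Galnt10, Hgh1, Scrt1, Srxn1 and Rbck1, with 2 at Scrt1). Of the 14 distal GBRs, 11 lay nearest to a member, 10 lay outside protein-coding genes, and 4 in their introns. The median distance from summit to the nearest protein-coding TSS was 7870 bp (exact 95% interval 280 to 30800), against 1080 bp for all GBRs. Of the 22, 13 lay downstream of the member's TSS and 9 upstream. This split includes the GBRs at promoters of neighbours, and no value over all GBRs was computed for it. Among listed distal peaks the called share was 38.9% near the 6 genes and 38.8% overall. Among listed promoter peaks it was 33.3% (8 of 24, Wilson interval 18 to 53.3) and 46.4%.

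Enrichment near the 6 genes was close to that of GBRs in general. The median log2 enrichment of the 22 was 2.82 (exact 95% interval for a median over peaks 2.47 to 3.18), and the median of all GBRs, 2.69, lies inside that interval. Of the 22, 14 exceeded the median of all GBRs. Among the 7282 GBRs, none of the 22 ranked in the top 500, 3 in the top 1000 (Tcf15, Hand2 and Scx) and 8 in the top 2000. In log2 enrichment, 10.6% of all GBRs stood above the strongest of the 22. Whether these counts depart from those of GBRs in general was not tested. The FDR was listed as 0 for 13 of the 22 (59.1%) and for 41.9% of all GBRs. Median length (400 bp in both) and median GC content of the summit window (58.8% and 58.7%) were alike.

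GLI matches were about as common near the 6 genes as elsewhere. The 4 of 22 amount to 18.2% (Wilson interval 7.31 to 38.5), against 20.8% of all GBRs. In windows of the same size 2 kb to either side of the summits, 5 of 44 held a match (11.4%), against 10.7% around all GBRs. All 4 were distal, which makes 28.6% of the 14 distal GBRs against 24.0% of all distal ones. The exact consensus was in 0 of the 22, where the interval reaches 14.9%, and in 2.84% of all GBRs. Among the 38 uncalled peaks, 7 (18.4%, Wilson interval 9.22 to 33.4) held a match, against 15.7% of all uncalled peaks. GBRs of Twist1, Twist2, Scx and Tcf15 held none.

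E-boxes of the HAND and TWIST kinds were in 9 of the 22 GBRs (40.9%, Wilson interval 23.3 to 61.3), against 33.3% of all GBRs. Taken by place in this window, the share was 42.9% of the 14 distal GBRs against 51.3% of all distal ones, and 37.5% of the 8 promoter GBRs against 17.1%, so the direction among distal GBRs was the opposite of the pooled comparison. In windows of this size 2 kb to either side, 17 of 44 (38.6%) held such an E-box near the 6 genes and 40.6% around all GBRs, so the summit share near the 6 genes was close to that of its flanks. The 9 GBRs were at Hand1 (2), Hand2 (2), Twist2 (2), Scx (2) and Tcf15 (1), while the Twist1 GBR held none. In every case an E-box lay within 100 bp of the summit. In that narrower window the share near the 6 genes stayed at 40.9% while that of all GBRs was 19.3%. In windows of that width 2 kb to either side it was 9.09% near the 6 genes and 18.7% around all GBRs. The share differs by place over all GBRs, and the 6 genes have relatively more distal ones, so distal and promoter GBRs were also taken apart in the narrower window, after the values were seen. Within 100 bp the share was 42.9% (21.4 to 67.4) of the 14 distal GBRs against 33.0% of all distal ones. At promoters it was 3 of 8 (37.5%, 13.7 to 69.4) against 6.92%, and those 3, at Galnt10, Hgh1 and Scrt1, are at other genes' promoters. The E-box counted at Hgh1 lies outside the listed boundaries of its peak. The uncalled peaks near the 6 genes held such an E-box in 13.2% and all uncalled peaks in 18.4%. Back in the window of 250 bp to each side, any CANNTG was in 86.4% of the 22 and 83.8% of all GBRs. The spaced E-box pair, in that wider window, was in 2 of 22 (9.09%, Wilson interval 2.53 to 27.8) against 2.35% of all GBRs. Both were distal, which makes 14.3% of the 14 distal GBRs (4.01 to 39.9) against 4.08% of all distal ones, a value inside the interval. A GLI match together with a searched E-box, both within 250 bp of the summit, was in 0 of 22, against 7.46%. Over the whole peak, rank 2979 near Hand1 held both.

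**Figure D4:**
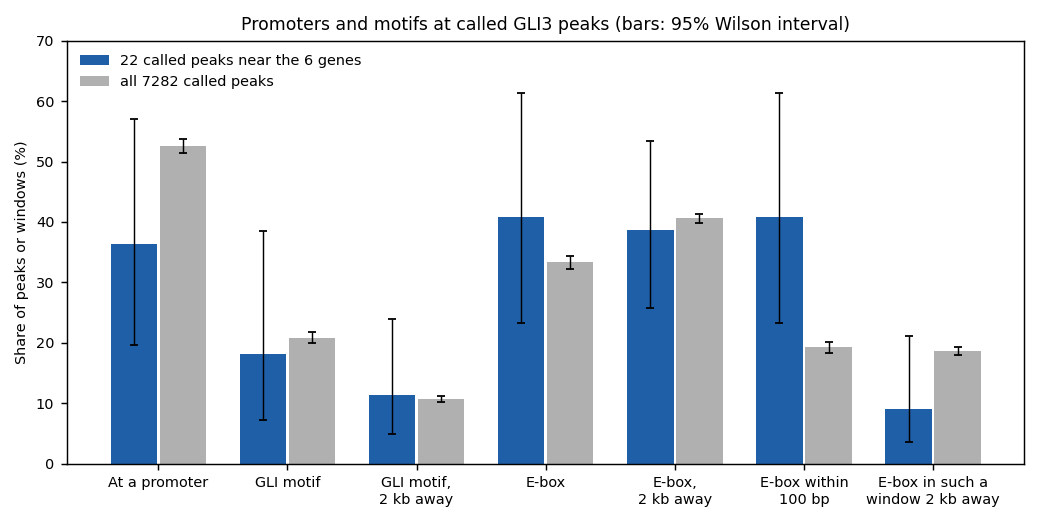
Share (vertical axis, %) of the 22 GBRs near the 6 genes (blue) and of all 7282 GBRs (grey) that overlap a promoter window, hold a GLI match (at most 1 mismatch), or hold a searched E-box, with the same for windows 2 kb to either side; error bars are 95% Wilson intervals over peaks. The blue intervals include the grey value for all measures but the E-box within 100 bp of the summit, where 40.9% stands beside 19.3%. The bars pool distal and promoter GBRs, whose mix differs between the groups. Taken apart, that share was 42.9% against 33.0% for distal GBRs. At promoters it was 3 of 8 (37.5%) against 6.92%, and those 3 are at other genes' promoters.

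Promoter sequences (250 bases before to 50 after the TSS, RefSeq, GRCm38.p6) were at hand for 3 of the 6 genes, Hand2, Twist1 and Twist2. None held a GLI match, and Hand2 held 1 searched E-box. Over all 32817 such promoters, 6.75% held a GLI match and 20.3% a searched E-box.

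Genes that act with HAND and TWIST proteins were looked up in the same way. The E protein genes Tcf3, Tcf4 and Tcf12 all had a GBR in their own promoter window, with 10, 5 and 4 GBRs within 200 kb. The best-ranked were 286 for Tcf3 (log2 enrichment 3.94), 591 for Tcf4 (3.62) and 1511 for Tcf12 (3.14), but by nearest protein-coding TSS the peaks for Tcf3 and Tcf12 belong to Mbd3 and Zfp280d. Of the GBRs within 200 kb, 1 of 10, 4 of 5 and 3 of 4 lay nearest to Tcf3, Tcf4 and Tcf12. Of the 4 Id genes, Id1, Id2 and Id3 had a promoter GBR and Id4 did not. Their best log2 enrichments were 4.28, 4.07, 3.95 and 2.68, and the number of GBRs within 200 kb had a median of 8.5. Of these GBRs 5 of 10 at Id1, 7 of 7 at Id2, 7 of 11 at Id3 and 1 of 1 at Id4 lay nearest to the gene, and the best-ranked peak for Id1 lay nearest to Foxs1. The list of 10 related class II genes held Ferd3l, Msc, Tcf21, Tcf23, Ptf1a, Mesp1, Mesp2, Msgn1, Tal1 and Lyl1. All had a GBR within 200 kb, as did 66.1% of protein-coding genes. Their median was 1.5 GBRs, against 1 for all protein-coding genes, and only Tal1 had a GBR in its own promoter. By nearest protein-coding TSS, 1 GBR belonged to Msc and 6 to Tal1, and none to any other gene in the list. Mesp1 and Mesp2 share their best-ranked GBR (rank 1066), which lies nearest to Kif7. The strongest GBRs in that list were near Lyl1 (rank 1, log2 enrichment 6.37, with 7 GBRs within 200 kb) and Tcf23 (rank 114, 4.33, with 6), above every value given for the E protein and Id genes, and none of the GBRs near these 2 genes had its nearest protein-coding TSS there. The only GBR near Ferd3l is that of Twist1, so the lists are not independent of the 6 genes. Of the partner and inhibitor genes, 6 of 7 thus had a promoter GBR, against 2 of the 6 Hand and Twist family genes and 17.2% of all protein-coding genes. The 2 include Tcf15, whose GBR lies outside a window of 1 kb to each side of its TSS.

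The limit of 200 kb fell between the following peaks. For Hand1, Twist2 and Scx the nearest listed peak outside it was uncalled, at 260, 283 and 242 kb with log2 enrichments of 1.85, 2.17 and 1.97, and for Twist1 at 213 kb with 2.16. For Hand2 it was a GBR at 331 kb (2.36), and for Tcf15 a GBR at 222 kb (3.27). The outermost peaks inside the limit were GBRs for Hand1 (187 kb, 3.0) and Tcf15 (189 kb, 2.42) and uncalled for Hand2 (191 kb, 2.21), Twist1 (173 kb, 1.95), Twist2 (200 kb, 2.18) and Scx (200 kb, 2.23).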

How the data were processed

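GLI3 ChIP-seq was done on E10.5 mouse forelimb buds (2 ChIP libraries and 1 input, 15 PCR cycles). The submitters' processing notes name Bowtie2 2.2.5 and mm10, and the authors called peaks with CisGenome. The methods describe the called peaks as derived from both biological replicates, and the list, which is attached to ChIP replicate 1 and does not itself name its libraries, was used as that joint call. In the deposited list, the FDR is a q-value from the authors' caller. The log2 fold enrichment is the authors' largest value of ChIP over input within a peak. The deposited T statistic, a score with no fixed range, set the authors' ranks. The deposited −log10 of the smallest Poisson p stops at 100. Depth is given only as a minimum per library. With no values per library, intervals cover counting error over peaks only.

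Peaks at an FDR under 0.05 were taken as GBRs, and the 5 peaks on unplaced contigs were dropped wherever a position was needed. Coordinates are printed as listed, and their starts may be off by 1 base. They were read against the GRCm38.p6 genome with GENCODE M21 basic gene models. Promoter windows covered 2 kb before to 1 kb after protein-coding TSSs, and all other peaks were distal. Motif windows covered 250 bp (or 100 bp) to each side of the summit. Shares have 95% Wilson intervals, and medians have exact order-statistic intervals. With no value per library, no test was run. Peak assignment and motif search were tested on simulated data. The peaks named were those called and nearest to a member, the best-ranked near each member, and other GBRs within 200 kb with their nearest gene. Uncalled peaks at TSSs and other uncalled peaks, and the genes beside them, were named after their values were seen. The members and gene lists were chosen with earlier results of these data known. Alternatives changed the FDR threshold, distance, TSS set, promoter window and motif search. Tools were Python 3.11.15, numpy 2.4.6, scipy 1.17.1, pandas 2.3.3, pysam 0.24.0 and samtools 1.23.1.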

Additional observations from a re-analysis of the deposited data

How the results depend on the processing

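Over 7 results and 41 alternatives, of which 2 were added after the data were seen, 32 values stayed within 1.5 times the reported count or inside the interval of the reported share or median. The other 9 were as follows. Taking every listed peak gave 60 peaks in place of 22 GBRs, 32 nearest to a member in place of 13, and a median log2 enrichment of 2.19 (2.23 over all listed peaks) in place of 2.82. A distance of 500 kb gave 47 GBRs, of which 13 were nearest to a member. At an FDR under 0.01, 25% of listed peaks were called (28.9% over all) and 7 of 15 were nearest to a member. With TSSs of all annotated genes, 7 of 22 were nearest to a member. The exact GLI consensus was in 0% of the 22 GBRs (2.84% over all), and any CANNTG in 86.4% (83.8% over all). No paired analysis was possible because the peak list holds no value per library, and for the same reason leaving out each replicate was not possible. Depth limits how weak a region the list can hold. Only a minimum depth per library is stated, so the size of that limit was not estimated.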
